A study of Mus musculus with 96 samples.

Results

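The 6 microRNA hairpins described here share a seed, a genomic cluster or a sister gene, and were followed in mouse striatum. They are mir-34a (MI0000584), mir-34b (MI0000404), mir-34c (MI0000403) and mir-449a (MI0001649), which form 1 family, and the pair mir-204 (MI0000247) and mir-211 (MI0000708). The hairpins were chosen by identifier from the 1187 hairpins of the deposited tables. No rule on their levels was used, but earlier results of these data were known when they were chosen. All 6 were among the 497 hairpins that passed the filter on low counts. Levels were measured by small RNA sequencing of 96 libraries. The mice had 6 genotypes and 2 ages, 6 and 10 months, and each combination had 8 libraries, 4 from males and 4 from females. All mice were labelled C57BL/6. The heterozygous knock-in mice carried 1 wild-type Htt allele and 1 allele with a human HTT exon 1, labelled Q20, Q50, Q92 or Q140 for its CAG repeat length, and the wild-type mice were littermates of the Q20 line or of the Q50 line. The Q92 and Q140 lines had no littermates of their own among these libraries, so Q20 and both wild-type groups together, 24 libraries per age, were the controls. CPM stands for a hairpin's count relative to the total of its library, after that total was adjusted by a trimmed-mean (TMM) factor.

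The microRNAs of the mir-34 and mir-449a family are best known from cells that carry many motile cilia, including the ependyma, which lines the brain ventricles. In mice, joint loss of the clusters that hold mir-34b, mir-34c and mir-449a leaves such cells with few or short cilia, and Ccp110, a centriolar protein that holds back cilia growth, is among their targets. The pair miR-204 and miR-211 is known from the retinal pigment epithelium and the choroid plexus, the epithelium in the ventricles that secretes cerebrospinal fluid. The related mir-34a stands apart, because it is a direct target of the tumour suppressor p53 and is expressed in many tissues, brain included. In bulk tissue, fewer cells of a type and less RNA per cell cannot be told apart.

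The mature sequences are shown because the seed, bases 2 to 8 counted from the 5′ end and printed in capitals, sets which hairpins belong together. They were taken from RefSeq (GRCm38.p6). The first 3 share 1 seed, the next 2 share the seed of the opposite arm, and the last 2 are the pair from mir-204 and mir-211. The source held no mature sequence for the 5′ arm of mir-34c. Its absence from the first 3 therefore does not mean that mir-34c lacks their seed.
mmu-miR-34a-5p: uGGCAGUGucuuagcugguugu
mmu-miR-34b-5p: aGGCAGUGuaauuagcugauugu
mmu-miR-449a-5p: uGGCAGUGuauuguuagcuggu
mmu-miR-34b-3p: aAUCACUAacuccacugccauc
mmu-miR-34c-3p: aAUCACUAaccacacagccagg
mmu-miR-204-5p: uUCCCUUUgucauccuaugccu
mmu-miR-211-5p: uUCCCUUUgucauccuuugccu

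Over their 22 bases, miR-204-5p and miR-211-5p were identical at 21, and the first 16 bases were shared. The 1 difference was A17U, with the base of miR-204-5p first and positions counted from the 5′ end. By comparison, miR-34a-5p and miR-449a-5p were identical at 15 of 22 bases, and miR-34b-3p and miR-34c-3p at 17 of 22.

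In all 96 libraries the deposited counts of mir-204 and of mir-211 were not whole numbers, while their sum was whole in 96 of 96 libraries at a tolerance of 0.005. The counts of the other 4 hairpins were whole in every library. How the counts were made is not stated, and whether reads common to mir-204 and mir-211 were divided between them was not tested. Because its counts were low and not whole, mir-211 (27.1 to 112 estimated counts per library) is reported as uncertain.

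The hairpins lie at 5 places in the genome (GRCm38.p6). The hairpin of mir-34a lies on the plus strand at chr4:150068454-150068555. Its 3′ end overlaps the start of an unclassified gene model, Gm37795. The pair mir-34b (chr9:51103562-51103645) and mir-34c (chr9:51103034-51103110) lies on the minus strand with 451 bases between them, inside an intron of Btg4, which is annotated on the opposite strand. Within an intron of Cdc20b, on its strand, mir-449a occupies chr13:113037534-113037624. Both remaining hairpins lie in introns of transient receptor potential channel genes, mir-204 at chr19:22750605-22750672 in Trpm3 and mir-211 at chr7:64205806-64205911 in Trpm1. The hairpin lengths implied by the deposited counts and FPKM values, 102, 84, 77, 91, 68 and 106 bases for mir-34a, mir-34b, mir-34c, mir-449a, mir-204 and mir-211, equalled the RefSeq lengths. Length was the only check of the 6 table entries, and it does not establish identity, since other hairpins can have the same length.

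Levels differed widely between the hairpins. As FPKM, which accounts for hairpin length, the median over the 96 libraries was 52326 for mir-204, 13210 for mir-34c, 1082 for mir-34a, 652 for mir-34b, 335 for mir-449a and 68.1 for mir-211. By median CPM, mir-204 was 46th and mir-34c 90th of the 497 hairpins, while mir-211 was 327th. The most abundant member of each pair, mir-34c and mir-204, thus dominated any summed level of its group.

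Libraries varied less in mir-204 and mir-211 than in the others. The level of mir-204 ran from 2261 to 6454 CPM with a median of 3556, and that of mir-211 from 4.14 to 12.51 CPM with a median of 7.31. The coefficients of variation over the 96 libraries were 19.9% and 21.2%, below the median of 24.1% over all 497 hairpins. The cilia-linked hairpins spread further. For mir-34c the range was 479 to 1913 CPM (median 1019), for mir-34b 26.3 to 121 CPM (median 55.5) and for mir-449a 8.65 to 53.9 CPM (median 30.8), with coefficients of variation of 29.7%, 30.4% and 26.5%. The widest coefficient of variation among the 6, 35.96%, belonged to mir-34a, at 62.5 to 319 CPM with a median of 109.

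The highest mir-34a levels belonged to 3 libraries of 10-month mice that stood apart: replicate 1 of the Q20 females, replicate 3 of the Q20 males and replicate 1 of the Q92 females. They were singled out after their values had been seen. Their mir-34a levels were 319, 307 and 208 CPM, above all other 93 libraries, whose highest value was 189 CPM. Their mir-204 levels were 6454, 6147 and 5979 CPM, again above the other 93, which reached 5045 CPM. The opposite held for mir-449a, at 11.4, 8.65 and 13.6 CPM, below the lowest value of the other 93, 15.4 CPM. In contrast, mir-34b (48.03 to 61.9 CPM) and mir-34c (925 to 1345 CPM) were inside the range of the other libraries, so these libraries were not high in all hairpins of the set. Of the 497 hairpins, 8 had their highest 3 values in exactly these libraries and 25 their lowest 3. What sets the 3 libraries apart was not tested. Results that rest on them are given with and without them, or it is said that they were included.

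**Figure D1:**
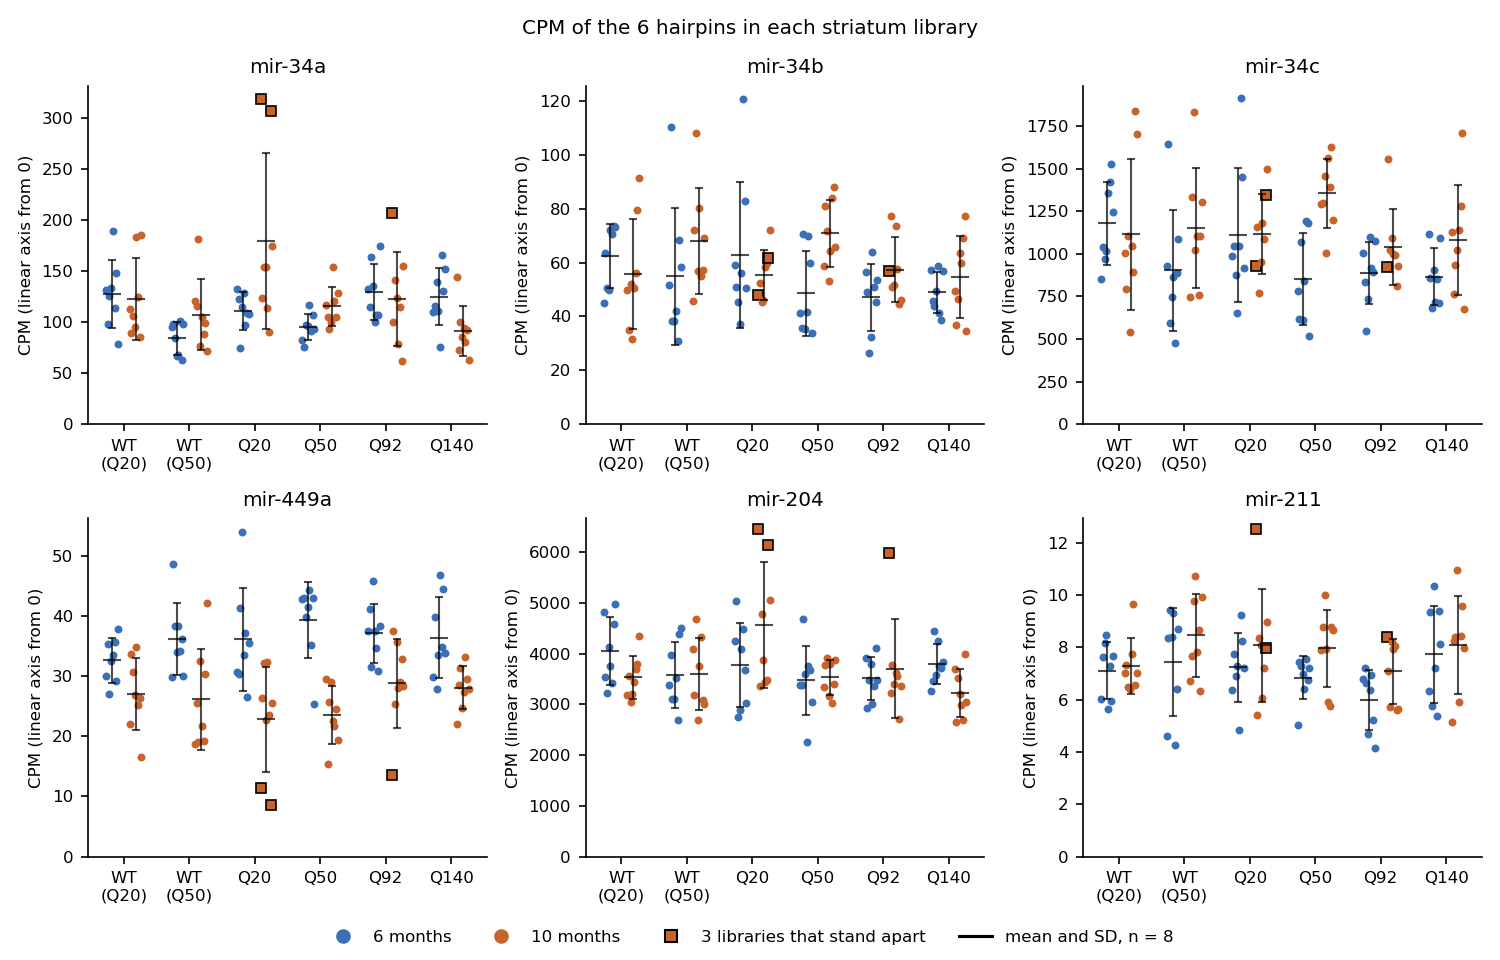
Each point is the CPM of 1 hairpin in 1 library (linear axes from 0), by genotype and age. Bars give the mean and SD of 8 libraries, and squares mark the 3 libraries that stood apart, which were highest in mir-34a and mir-204 and lowest in mir-449a. All groups of a hairpin overlapped at each age.

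The 6 hairpins did not rise and fall together from library to library. They are therefore described as single hairpins and pairs, and not as a measure of ependyma or choroid plexus content. The closest pair was mir-34b and mir-34c, with a Pearson r of 0.90 and a Spearman rho of 0.89 over the 96 libraries on the log2(CPM + 0.5) scale (permutation p = 1e-05 for each, the smallest that 100000 resamples can give, adjusted over 15 pairs p = 3.75e-05 and 0.00015). This r was 0.92 at 6 months and 0.87 at 10 months, lay between 0.88 and 0.94 within each L number (a number in the library labels whose meaning is not stated), and was 0.89 without the 2 libraries farthest from the median of mir-34b. The libraries share genotypes and ages, and with the mean of each genotype, age and sex removed it was 0.88. Of the 10 libraries with the highest mir-34c, 6 were also among the 10 with the highest mir-34b. As counts, not per length, mir-34c was 12.2 to 24.4 times mir-34b, with a median of 18.7 and a coefficient of variation of 12.6%.

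Though it carries the same seed as mir-34b, mir-449a did not follow this pair. Its r was −0.23 with mir-34b (permutation p = 0.0247, adjusted 0.0412, rho −0.26, p = 0.0128, adjusted 0.0319) and −0.25 with mir-34c (p = 0.0143, adjusted 0.0272, rho −0.28, p = 0.00595, adjusted 0.0178). After the means of genotype, age and sex were removed, r was −0.02 and 0.06, so the pooled relation was not seen within these groups. Within the 2 ages r lay between −0.06 and −0.19. At 10 months, without the 3 libraries that stood apart, it was −0.32 with mir-34b and −0.15 with mir-34c. Without the 2 libraries farthest from the median of the first hairpin the pooled r was −0.26 and −0.27. It was −0.28 and −0.29 without the 3 libraries that stood apart (permutation test, adjusted p = 0.017 for each). Across L numbers, r with mir-34c ran from −0.78 (9 libraries) to 0.06 (11 libraries), and r with mir-34b from −0.70 to −0.12 in the same L numbers. The ratio of mir-34c to mir-449a, as counts, accordingly varied from 12.1 to 156 with a coefficient of variation of 56.4%.

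The sister pair mir-204 and mir-211 was likewise only loosely related, with r = 0.18 and rho = 0.13 (permutation p = 0.0837 and 0.19, adjusted 0.103 and 0.227), and r = 0.09 without the 2 libraries farthest in mir-204. This r was 0.06 at 6 months and 0.31 at 10 months, and between 0.07 and 0.49 within L numbers. Without the 3 libraries that stood apart the pooled r was 0.07. It was then 0.16 at 10 months and between 0.03 and 0.52 within L numbers. Of the 10 highest libraries in mir-204, 2 were among the 10 highest in mir-211. The counts of the pair were not whole and those of mir-211 were low, and their part in this value was not tested.

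Instead mir-34a went with mir-204 and against mir-449a. The r of mir-34a with mir-204 was 0.53 and rho 0.41 (permutation p = 1e-05 and 3e-05, adjusted 3.75e-05 and 0.000225). It fell to 0.41 without the 2 libraries farthest in mir-34a and to 0.36 (adjusted p = 0.0028) without the 3 libraries that stood apart. By age, it was 0.13 at 6 months and 0.79 at 10 months, where it was 0.63 without those 3, so the pooled value rested on the 10-month libraries. Within L numbers it ranged from −0.03 (9 libraries) to 0.77 (11 libraries). Without those 3 the L number values ranged from −0.03 to 0.51, with 0.47 in place of 0.77.

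The r of mir-34a with mir-449a was −0.48 and rho −0.29 (permutation p = 1e-05 and 0.00478, adjusted 3.75e-05 and 0.0178), and −0.31 without the 2 farthest libraries. Without the 3 libraries that stood apart it was −0.25 (adjusted p = 0.0313), and at 10 months it went from −0.65 to −0.36. At 6 months, which held none of the 3, it was −0.25. Within L number 3 it was −0.44 (11 libraries) and 0.19 without the 1 of the 3 there, within L number 4 −0.37 (37 libraries) and −0.02, within L number 5 −0.67 (39 libraries) and −0.55, and within L number 6, with none of the 3, 0.10 (9 libraries). For mir-449a and mir-204, r was −0.44 and rho −0.22 (permutation p = 1e-05 and 0.0274, adjusted 3.75e-05 and 0.0577), r was −0.28 without the 2 libraries farthest in mir-449a, and −0.20 without the 3 (adjusted p = 0.0768). By age it was −0.24 and −0.73, the latter −0.49 without the 3. Within L numbers it lay between −0.69 and −0.35, and between −0.35 and −0.21 without the 3. With the means of genotype, age and sex removed, r was 0.46 for mir-34a with mir-204, −0.54 for mir-34a with mir-449a and −0.56 for mir-449a with mir-204 (adjusted p = 3.75e-05 for each). These residual values included the 3 libraries. All 3 pooled values were nearer to 0 without the 3 libraries, while that of mir-34b and mir-34c was 0.90 without them. The 3 libraries held the extreme values of mir-34a, mir-204 and mir-449a, but not of mir-34b or mir-34c. They were singled out after this was seen, so the contrast follows from their choice and does not show how firm each pair is. In all, 15 pairs were compared. The other 8 pairs had an r between −0.20 and 0.29, the highest being that of mir-34b with mir-204 (adjusted p = 0.0109). Of these, mir-34b with mir-211 and mir-34c with mir-204 also passed the threshold, each with r = 0.25 (adjusted p = 0.0272), the former not once genotype, age and sex were removed (0.22, adjusted p = 0.063). Without the 3 libraries mir-34a and mir-211 passed as well, with r = −0.24 (adjusted p = 0.0343). Scaled by total counts alone, 4 more pairs passed: mir-34a with mir-34c (0.29, adjusted p = 0.00627), mir-34c with mir-211 (0.26, 0.0128), mir-449a with mir-211 (−0.32, 0.00285) and mir-204 with mir-211 (0.24, 0.0206).

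**Figure D2:**
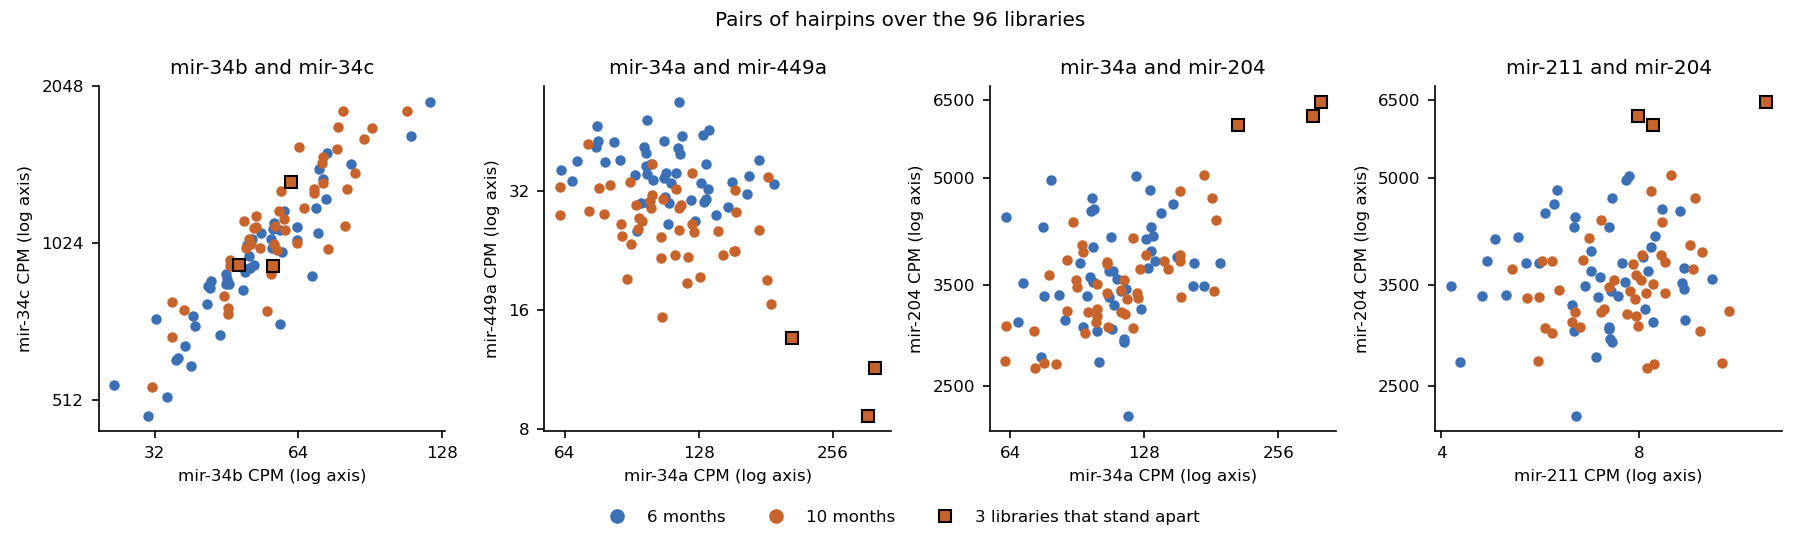
CPM of 4 pairs of hairpins on log axes, with 1 point per library (blue 6 months, orange 10 months, squares the 3 libraries that stood apart). The points of mir-34b and mir-34c lie along a line (r = 0.90), those of mir-211 and mir-204 form a cloud (r = 0.18), and the squares lie at the far ends of both mir-34a panels.

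The hairpins whose residual levels, after genotype, age and sex, were most like each member's were found among the other 496. For mir-34b and mir-34c each was the other's nearest, with a Spearman rho of 0.87 over 96 libraries, and the next for both was MI0000792 at 0.54. For mir-34a the nearest was MI0000159 at 0.79, and the third was still at 0.71, whereas mir-34b came 240th and mir-34c 165th. The nearest hairpins reached 0.64 for mir-449a, 0.67 for mir-204 and 0.32 for mir-211, and none of those was a member. Since the files pair no names with these identifiers, which microRNAs they are was not determined here.

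Age was the comparison in which members were called. Here 2 of the 6 members were called in controls and 3 of 6 in the Q50, Q92 and Q140 mice as 1 arm, called the longer-repeat mice here since Q20 mice were among the controls (edgeR quasi-likelihood test, adjusted p under 0.05 over 497 hairpins). This stands beside 41% of all 497 hairpins called between ages in controls (97 higher and 107 lower at 10 months) and 37.4% in the longer-repeat mice (94 higher and 92 lower). Scaled by total counts alone, the same comparisons gave 146 higher and 63 lower, and 149 higher and 47 lower. The members' share was thus near that of all hairpins. Mice of the 2 ages are different animals, and age went with the L number: L number 6 held 9 libraries of 6 months and 0 of 10 months, and L numbers 4 and 5 held 10 and 27 libraries of 6 months against 27 and 12 of 10 months.

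The member lower at 10 months in both arms was mir-449a, made from the Cdc20b locus of the multiciliated cell programme. In controls the lowest, median and highest values were 26.4, 34.1 and 53.9 CPM at 6 months and 8.65, 25.5 and 42.2 CPM at 10 months. In the longer-repeat mice they were 25.3, 37.9 and 46.7 CPM at 6 months and 13.6, 27.9 and 37.5 CPM at 10 months. The ages overlapped, yet 22 of 24 control and 24 of 24 longer-repeat libraries of 10 months lay below the median of their arm at 6 months. The fitted log2 change was −0.47 ± 0.11 (SE) in controls (adjusted p = 0.000505, edgeR), a fall of 27.7%, and −0.49 ± 0.08 in the longer-repeat mice (adjusted p = 5.12e-06). Each of the 6 genotypes was lower at 10 months on average, by −0.29 in the wild-type littermates of the Q20 line to −0.74 in Q50. Without the 3 libraries that stood apart the change in controls was −0.38 (adjusted p = 0.000435). Within L number 3 it was −0.34 (1 against 6 libraries), within L number 4 −0.27 (4 against 13) and within L number 5 −0.70 (16 against 5), and in the longer-repeat mice it was −0.41, −0.34 and −0.63. These values included the 3 libraries that stood apart. In controls L numbers 4 and 5 each held 1 of them, and in the longer-repeat mice L number 3 held 1.

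The clustered pair moved the other way, and was called in the longer-repeat mice. There mir-34c had 520, 853 and 1195 CPM as lowest, median and highest values at 6 months and 678, 1111 and 1708 CPM at 10 months, and 21 of 24 libraries of 10 months lay above the 6-month median. The change was 0.41 ± 0.10 (SE) on the log2 scale (adjusted p = 0.000741, edgeR), or 32.6% higher. For mir-34b the values were 26.3, 47.3 and 70.5 CPM at 6 months and 34.8, 59.3 and 87.9 CPM at 10 months, with 19 of 24 above the 6-month median and a log2 change of 0.33 ± 0.10 (adjusted p = 0.00692). The ages overlapped for both hairpins. By genotype the mean log2 change of mir-34c was 0.72 ± 0.18 (SE) in Q50, 0.23 ± 0.15 in Q92 and 0.29 ± 0.18 in Q140, so that Q50 differed most. Within L numbers 4 and 5 it was 0.49 and 0.64, and it was −0.20 in L number 3, with 1 library of 6 months and 3 of 10 months. For mir-34b these values were 0.40, 0.55 and 0.13.

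Controls gave no call for the pair: the log2 change was 0.09 ± 0.12 for mir-34c (adjusted p = 0.594) and −0.01 ± 0.12 for mir-34b (adjusted p = 0.955), with medians of 1002 and 1095 CPM for mir-34c and of 53.8 and 56.5 CPM for mir-34b at 6 and 10 months. The 2 wild-type groups differed in sign, at 0.38 ± 0.24 for mir-34c in the littermates of the Q50 line and −0.15 ± 0.23 in those of the Q20 line, and in the Q20 mice it was 0.05 ± 0.20. For mir-34b the same 3 groups had 0.37 ± 0.25, −0.22 ± 0.21 and −0.10 ± 0.20. The difference between the arms was tested itself, in a comparison added after the data had been seen. It was 0.32 ± 0.16 for mir-34c and 0.34 ± 0.16 for mir-34b, both with an adjusted p of 0.708, so the change with age was not shown to differ between longer-repeat mice and controls. Of the 497 hairpins 0% were called in that comparison, by edgeR and by DESeq2, with 6.84% at an unadjusted p under 0.05, among them 3 members.

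At 10 months mir-34a was higher in controls. The lowest, median and highest values were 62.8, 105 and 189 CPM at 6 months and 72.3, 115 and 319 CPM at 10 months, and 16 of 24 libraries of 10 months lay above the 6-month median. The log2 change was 0.33 ± 0.13 (SE, adjusted p = 0.0345, edgeR). This call rested on few libraries, since the change was 0.19 without the 3 libraries that stood apart (adjusted p = 0.158), and leaving out any 1 of 7 control libraries ended it. Within L number 4 it was −0.05, within L number 5 0.82 and within L number 3 0.25, so it did not hold in each. The 10-month controls of L numbers 4 and 5 each included 1 of the 3 libraries that stood apart. In the longer-repeat mice the change was −0.08 ± 0.11 (adjusted p = 0.588). By genotype it ran from 0.58 ± 0.25 in Q20 to −0.45 ± 0.18 in Q140. The difference between the arms was −0.41 ± 0.17 (adjusted p = 0.708).

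The pair mir-204 and mir-211 gave no call for age in the main test. Medians of mir-204 in controls were 3716 and 3627 CPM at 6 and 10 months, with a log2 change of 0.03 ± 0.08 and a 95% interval of −0.14 to 0.19. In the longer-repeat mice they were 3581 and 3402 CPM, with a change of −0.04 ± 0.07 and an interval of −0.17 to 0.09. For mir-211 the changes were 0.13 ± 0.09 in controls (adjusted p = 0.255) and 0.17 ± 0.08 in the longer-repeat mice (adjusted p = 0.104), with control medians of 7.46 and 7.71 CPM. Scaled by total counts alone, mir-211 passed the threshold in both arms, at 0.22 (adjusted p = 0.0389) and 0.28 (adjusted p = 0.00463). Its direction was the same under every scaling tried.

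**Figure D3:**
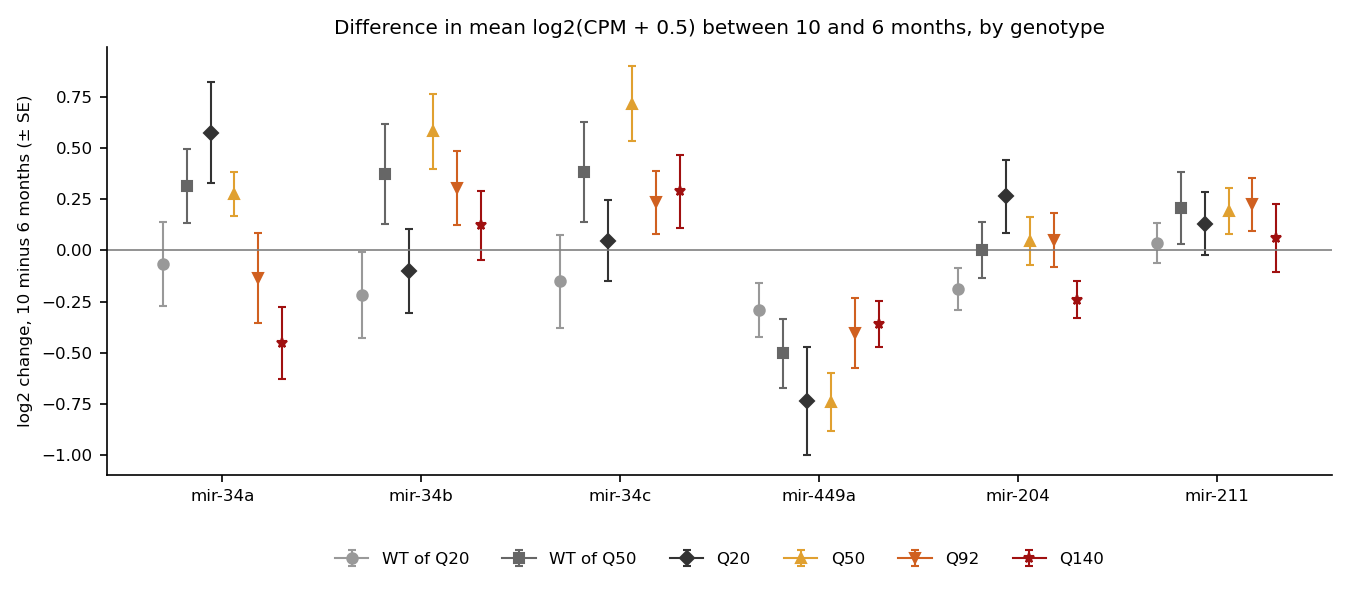
Difference in mean log2(CPM + 0.5) between 10 and 6 months, with its SE, for each hairpin and genotype (8 libraries per age). All 6 genotypes lie below 0 for mir-449a, and mir-34a runs from 0.58 in Q20 to −0.45 in Q140. The 3 genotypes with 50 or more repeats lie above 0 for mir-34b and mir-34c. So do the wild-type littermates of the Q50 line (0.37 and 0.38) and, for mir-34c, the Q20 mice (0.05).

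The CAG repeat length was the question of the study. No member was called with it: 0 of the 6 passed for the slope on CAG length at 6 months, at 10 months or over both ages, beside 8.45%, 15.5% and 21.7% of all 497 hairpins (edgeR). At an unadjusted p under 0.05 there were 3, 1 and 1 members, beside 21.7%, 26.8% and 31.6% of all hairpins, and DESeq2 and limma called 0. At 6 months the slopes per 100 repeats were 0.21 ± 0.10 for mir-34a (adjusted p = 0.203), −0.25 ± 0.12 for mir-34b (adjusted p = 0.213) and −0.23 ± 0.11 for mir-34c (adjusted p = 0.229), and at 10 months −0.35 ± 0.16 for mir-34a (adjusted p = 0.13). Over both ages the slope of mir-34b was −0.18 ± 0.08, with a 95% interval of −0.34 to −0.02 (adjusted p = 0.119, edgeR), and this was the 1 member with an unadjusted p under 0.05. For the others the intervals were −0.25 to 0.11 for mir-34a, −0.31 to 0.01 for mir-34c, −0.04 to 0.23 for mir-449a, −0.21 to 0.01 for mir-204 and −0.14 to 0.11 for mir-211.

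The Q140 mice against controls had 0 of 6 members called at 6 months, at 10 months and over both ages, beside 9.26%, 17.1% and 25.4% of all hairpins (edgeR). Unadjusted, 0, 2 and 0 members had a p under 0.05, beside 24.1%, 30% and 35.4%. DESeq2 called 1 at 10 months, mir-34a, and 0 otherwise, and limma called 0. The value nearest to a call was that of mir-34a at 10 months. The lowest, median and highest levels were 62.6, 89.3 and 145 CPM in the 8 Q140 libraries and 72.3, 115 and 319 CPM in the 24 controls. The groups overlapped, with 7 of the 8 Q140 libraries below the control median. The log2 difference was −0.58 ± 0.21 (SE, adjusted p = 0.0565, edgeR). At 6 months it was 0.22 ± 0.14 (adjusted p = 0.336), with 7 of 8 Q140 libraries above the control mean.

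This value for mir-34a depended on which mice served as controls. Against the 8 Q20 mice alone it was −0.97 (adjusted p = 0.00465), and against the 16 wild-type mice alone −0.33 (adjusted p = 0.205). Among the Q20 mice were 2 of the 3 libraries that stood apart, and without all 3 it was −0.40 (adjusted p = 0.0743). Within L number 4 (7 against 13 libraries) it was −0.39, and within L number 5 the 1 Q140 library lay 0.91 below the mean of 5 controls on the log2 scale. The controls of L numbers 4 and 5 each included 1 of the 3 libraries that stood apart. Leaving out any 1 of 10 libraries, replicate 1 of the Q140 females among them (−0.70, adjusted p = 0.0272), brought it past the threshold.

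The level of mir-204 in Q140 at 10 months had a lowest, median and highest value of 2653, 3129 and 3995 CPM against 2697, 3627 and 6454 CPM in controls, with a log2 difference of −0.28 ± 0.12 (adjusted p = 0.105). It too was past the threshold against Q20 mice alone (−0.50, adjusted p = 0.0112) and not against wild-type mice alone (−0.15, adjusted p = 0.349). For the other members at 10 months the differences were between −0.13 and 0.15.

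The Q92 and Q50 mice likewise had 0 of 6 members called at either age and over both (edgeR, DESeq2 and limma). For Q92 this stands beside 0% of all hairpins at 6 months, 0% at 10 months and 0% over both ages, where DESeq2 called 0, 12 and 2 hairpins and 4.63%, 10.1% and 8.45% had an unadjusted p under 0.05. For Q50 it stands beside 0%, 0.201% and 0%, where DESeq2 called 0, 1 and 0 and 9.05%, 5.43% and 9.05% had an unadjusted p under 0.05. Unadjusted, 2 members passed for Q92 at 6 months and 1 over both ages, and 0 for Q50. The largest differences in size were those of mir-34b in Q92 at 6 months, −0.35 ± 0.17 (adjusted p = 0.978), and of mir-34c in Q50 at 6 months, −0.32 ± 0.16 (adjusted p = 0.521). The latter was 0.27 ± 0.15 at 10 months (adjusted p = 0.868).

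**Figure D4:**
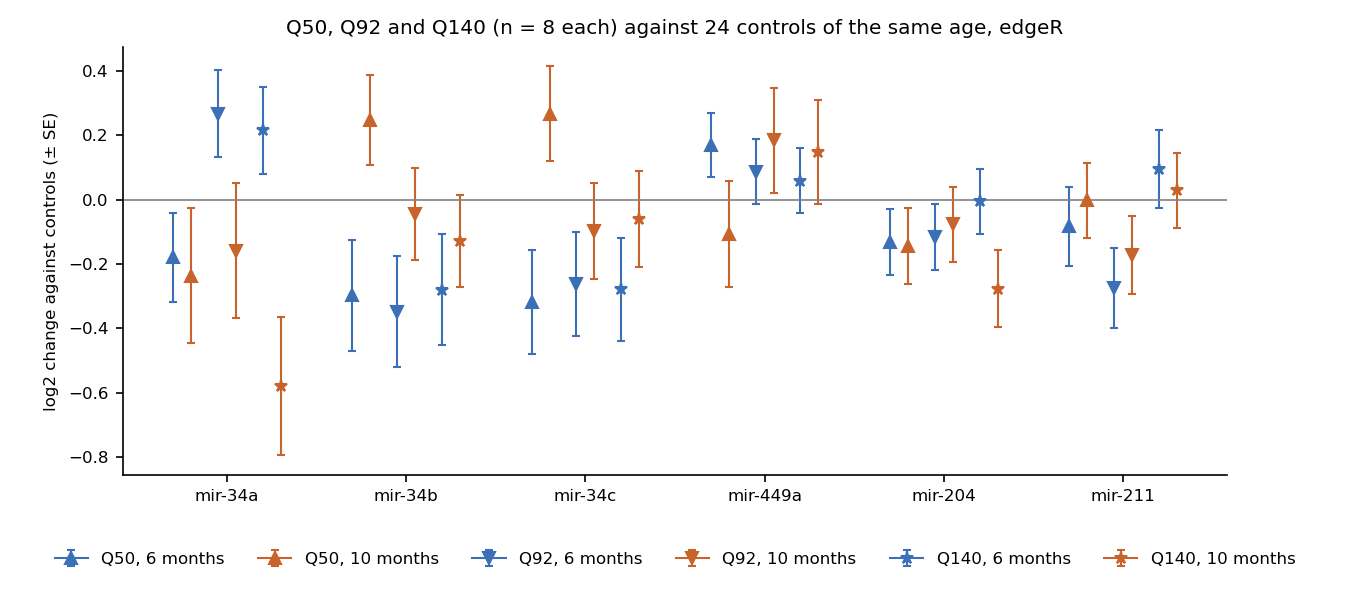
Fitted log2 change of each hairpin in Q50, Q92 and Q140 (8 libraries each) against 24 controls of the same age, with its SE. The value farthest from 0 is that of mir-34a in Q140 at 10 months, −0.58, and no value passed the adjusted threshold.

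Whether age changed the CAG slope was tested over all 96 libraries. Of the 6 members 0 were called, beside 2.21% of all hairpins (edgeR, and 0 members by DESeq2 and limma), and 1 had an unadjusted p under 0.05, beside 9.86% of all hairpins. That was mir-34a, with a difference of −0.56 ± 0.18 per 100 repeats (10 minus 6 months, adjusted p = 0.122, edgeR), and without the 3 libraries that stood apart it was −0.47 (adjusted p = 0.1). The estimates for the other 5 lay between −0.13 and 0.16.

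Sex was compared in the 48 controls, where 0 of 6 members were called beside 0.201% of all hairpins (edgeR, and 0 members by DESeq2 and limma). Unadjusted, 2 members had a p under 0.05, beside 10.1% of all hairpins. They were mir-34b and mir-34c, with log2 values, females minus males, of −0.32 ± 0.12 and −0.29 ± 0.12 (adjusted p = 0.288 and 0.324, edgeR). Q20 mice against their own wild-type littermates also gave 0 of 6, beside 0.201% of all hairpins, 0 at an unadjusted p under 0.05 beside 9.66%, and 0 by DESeq2 and limma. The difference farthest from 0 was 0.18 ± 0.17 for mir-34a (adjusted p = 0.774), which was −0.04 without the libraries that stood apart and 0.08 without replicate 1 of the 10-month Q20 females alone.

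The libraries of the 6 genotypes overlapped for each hairpin at each age. At 6 months mir-34a was lowest in the wild-type littermates of the Q50 line, 84.5 ± 16.2 CPM (SD, n = 8), and highest in Q92, 130 ± 27.7 CPM, and at 10 months it was lowest in Q140, 91.8 ± 24.7 CPM, and highest in Q20, 179.5 ± 86.5 CPM, or 135 ± 31.2 CPM without the 2 libraries that stood apart. The orders at the 2 ages thus differed. At 6 months mir-34c was lowest in Q50, 853 ± 268 CPM, and highest in the wild-type littermates of the Q20 line, 1179 ± 243 CPM, whereas at 10 months Q50 was highest, 1354 ± 202 CPM, and Q92 lowest, 1040 ± 224 CPM. For mir-34b the extremes were Q92 (47.2 ± 12.4 CPM) and Q20 (62.8 ± 26.9 CPM) at 6 months and Q140 (54.7 ± 15.3 CPM) and Q50 (70.8 ± 12.54 CPM) at 10 months.

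The order of mir-449a reversed for Q50, which was highest at 6 months (39.3 ± 6.33 CPM) and at 10 months second lowest (23.5 ± 4.78 CPM) after Q20 (22.8 ± 8.71 CPM). Without its 2 libraries that stood apart Q20 was at 27.1 ± 4.22 CPM (n = 6), and Q50 was then the lowest. Its lowest mean at 6 months was that of the wild-type littermates of the Q20 line, 32.6 ± 3.69 CPM, and its highest at 10 months that of Q92, 28.8 ± 7.40 CPM, or 30.9 ± 4.48 CPM without its 1 such library. For mir-204 the means ran from 3470 ± 681 CPM in Q50 to 4055 ± 668 CPM in the wild-type littermates of the Q20 line at 6 months. At 10 months they ran from 3222 ± 479 CPM in Q140 to 4570 ± 1240 CPM in Q20, or 3993 ± 738 CPM without the 2 libraries. For mir-211 they ran from 6.00 ± 1.15 CPM in Q92 to 7.73 ± 1.85 CPM in Q140 at 6 months, and from 7.08 ± 1.24 CPM in Q92 to 8.45 ± 1.59 CPM in the wild-type littermates of the Q50 line at 10 months. Neighbours in each order were closer than the larger of their SDs, as sorted means tend to be. The lowest and highest means were further apart than that in several cases, among them mir-34a and mir-34c at 6 months, and these differences were not tested.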

How the data were processed

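Per the labels, RNA of striatum was extracted with a kit that keeps small RNA, and libraries were sequenced. The submitters' processing notes name CASAVA 1.8.2. The deposited tables hold estimated counts per hairpin, of which the authors' values above 0 were not whole in 20.0% of cases (tolerance 0.001), and FPKM values that the authors made from them. Estimated counts were rounded for testing. Totals per library ranged from 3948560 to 12530911 (median 6638753), 1033 of 1187 hairpins had a count, and all table columns matched a sample (0 did not).

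Main tests used edgeR 4.0.16 (R 4.3.3): filterByExpr with a minimum count of 10 over the 24 groups (497 hairpins, 99.99% of counts), TMM factors, robust quasi-likelihood F tests, and Benjamini-Hochberg adjustment. Sex was the covariate in the slope and genotype fits of each age. Age fits had genotype and sex, the sex fit genotype and age, and the fit of Q20 against its wild type age and sex. The fit of slope by age held sex, age and slope, and that of the arms genotype, sex and age. Wild type was given 7 repeats in slopes, as in the study's methods. Both ages were combined by Stouffer's method, and the log2 value given is the mean of both ages. Intervals are the 95% normal intervals of the estimate. Correlations used log2(CPM + 0.5) and two-sided permutation tests with 100000 resamples. DESeq2 1.42.0 and limma 3.58.1 on log2(FPKM + 1) were alternatives, besides other scalings, filters, controls and libraries left out. The fits were tested on simulated data.

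Libraries of a group are separate mice by label. Averaged over all groups of an age, same-numbered replicates did not deviate together (mean r −0.02 at 6 and 0.00 at 10 months), so numbers were not taken as pairs. Such a mean could miss pairing of littermates within the Q20 or the Q50 line alone. The members and lists were chosen with earlier results of these data known. The rule named the 6 members, the 3 hairpins most like each, and libraries at an extreme or ending a call. Lists of markers of ependyma, choroid plexus, other epithelium, neurons, oligodendrocytes, vessels and blood, microglia and of p53-linked hairpins could not be matched beyond the members, since the tables give identifiers without names, so the tissue could not be checked by markers. The batch terms of the study's own models are not given in the labels.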

Additional observations from a re-analysis of the deposited data

Results flagged for a closer look

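Among the 144 combinations of 6 hairpins and 24 groups of 4 libraries, 4 had 1 library far from the other 3, as judged by the ratio of its gap to the range of the group. Chance flags about 1 group in 20, so 4 of 144 is no more than chance gives. The mir-34a level of replicate 1 of the 10-month Q20 females was 319 CPM, against 124 to 154 CPM in the other 3. Replicate 4 of the 6-month Q92 males had 175 CPM of mir-34a, against 100.2 to 108 CPM. Replicate 3 of the 6-month Q50 females was flagged for both mir-34b, at 70.5 CPM against 35.5 to 41.3 CPM, and mir-204, at 4672 CPM against 3376 to 3590 CPM. The first of these is one of the 3 libraries that stood apart. The other 2, replicate 3 of the 10-month Q20 males and replicate 1 of the 10-month Q92 females, were not flagged within their groups of 4.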

How the results depend on the processing

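Of 1218 values of the 6 hairpins under alternative settings in 18 comparisons, 61 changed sign, and 0 of these had been called. The age calls of mir-449a in both arms and of mir-34b and mir-34c in the longer-repeat mice held under all 11 alternatives and with each library left out. For age in controls, the log2 change of mir-449a was between −0.47 and −0.38 under the alternatives and between −0.51 and −0.42 with each library left out. The count of called members there, 2, became 1 without the low-connectivity libraries (mir-34a, adjusted p = 0.0518), without the 3 libraries that stood apart (0.158), with no filter on low counts (0.055, with 1005 hairpins tested) and without L number 6 (0.0611). It was 1 to 2 when each library was left out. Those that ended the mir-34a call were replicates 1 of the 10-month Q20 females and 3 of the 10-month Q20 males, 3 of the 6-month Q20 females, 1 and 4 of the 10-month male wild-type littermates of the Q20 line, 3 of the 10-month female and 3 of the 6-month male wild-type littermates of the Q50 line, with log2 values from 0.27 to 0.37 over all 48. For Q140 against controls at 10 months, the count of 0 became 1 without the low-connectivity libraries, with total counts alone (adjusted p = 0.0498) and with DESeq2 (0.0308), 2 with Q20 mice alone as controls, and 0 to 1 when each library was left out. The difference of the CAG slope between ages gave 1 in place of 0 without the low-connectivity libraries (mir-34a, −0.63, adjusted p = 0.0231), and 0 to 1 when each library was left out, 1 without replicate 1 of the 6-month Q140 males, of the 10-month Q92 females or of the 6-month male wild-type littermates of the Q20 line. The cause of these changes was not tested. The low-connectivity libraries were 3, with a connectivity Z below −5. Among them were replicate 1 of the 10-month Q92 females (−7.11) and replicate 1 of the 6-month Q140 males (−6.62). The last was replicate 3 of the 6-month male wild-type littermates of the Q50 line (−5.95). Only the Q92 library was also among the 3 that stood apart, and the Q20 libraries that stood apart had −3.91 and −3.21. The settings without the low-connectivity libraries or without the 3 that stood apart were chosen after seeing the data.

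With the replicate number as a block, 1 member (mir-34a, −0.58, adjusted p = 0.0434) was called for Q140 at 10 months in place of 0, and no other call of a member changed. The numbers were not taken as pairs of mice, and pairing within a single line was not tested. For age, mir-211 was called in controls with limma (adjusted p = 0.0389) and with the L number as a factor (0.29, adjusted p = 0.0355), and in the longer-repeat mice with limma (0.00654), without L number 6 (0.0184) and without replicate 1 of the 10-month Q140 females (0.0442). On the limma scale the median age change of all hairpins in controls was 0.11, against 0.00 in edgeR. A filter at a mean of 10 CPM removed mir-211, which limits what can be said of it. The correlation of mir-34c with mir-449a turned from −0.25 to 0.06 with genotype, age and sex removed.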
